A study of Mus musculus with 6 samples.

Results

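Lymphatic endothelial cells (LECs) were examined in single-cell RNA-Seq libraries of lower abdominal muscle (LAM). LECs were chosen by measured values. A barcode was a member when it held at least 1000 UMIs (unique molecular identifiers, each standing for 1 captured RNA molecule), at most 10% of them from mitochondrial genes, at least 0.5% of them from Ccl21a, and at least 1 UMI of Lyve1, Mmrn1 or Prox1. The rule found 706 LECs among 63647 deposited barcodes, of which 53443 passed the limits on UMIs and mitochondrial genes ("kept barcodes"). The libraries came from male FVB/N mice aged 9 to 10 weeks, 3 wild-type (WT) controls and 3 Arom hum mice, 1 library for each mouse. Arom hum mice carry a human aromatase transgene under its own promoters (aromatase makes estrogens from androgens), and all 3 were labelled with scrotal hernia, whereas the WT mice were labelled as controls. Genotype and hernia therefore cannot be told apart. The tissue was minced, digested with collagenase and dispase, filtered and cleared of red blood cells before capture. On each of 3 dates the authors processed a WT mouse together with an Arom hum mouse of the same litter. The labels do not tie the replicate numbers to these dates.

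Lymphatic endothelium lines the blind-ended capillaries and the valved collecting vessels that drain tissue fluid and carry immune cells to lymph nodes. Its identity is set by the transcription factor Prox1, and its growth is driven by VEGF-C acting on the receptor VEGFR-3, the product of Flt4. LECs secrete the chemokine CCL21, which binds CCR7 on dendritic cells and T cells and guides them into the vessel. LYVE-1 is a hyaluronan receptor of lymphatic capillaries, and multimerin 1, the product of Mmrn1, is an extracellular matrix protein. Oestrogens act mainly through nuclear receptors encoded by Esr1 and Esr2.

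Ccl21a carried the choice of cells, so the identity of its reads matters. In the reference annotation (GENCODE vM21, GRCm38) Ccl21a lies on chromosome 4 from 42772860 to 42773993 on the minus strand, within a run of near-identical copies. The copies Ccl21b, Gm10591, Gm13304 and Gm21541 each have a coding sequence of 402 bases that differs from that of Ccl21a at 2 positions (99.5% identity) and is the same in all 4. Positions are counted from 1 at the first coding base of Ccl21a, and the substitutions are T84A and C194T. The sequences below show coding bases 54 to 114 and 164 to 224 of Ccl21a and of Ccl21b, with the differing base in capitals.
Ccl21a, bases 54 to 114: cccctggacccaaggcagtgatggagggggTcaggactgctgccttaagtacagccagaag
Ccl21b, bases 54 to 114: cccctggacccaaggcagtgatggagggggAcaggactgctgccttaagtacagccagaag
Ccl21a, bases 164 to 224: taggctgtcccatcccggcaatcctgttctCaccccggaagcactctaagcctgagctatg
Ccl21b, bases 164 to 224: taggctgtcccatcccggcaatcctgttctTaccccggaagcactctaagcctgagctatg
None of the 4 copies has its own row in the count table used here. The libraries were made with a 3' kit, and only coding sequences were compared here, not the untranslated ends. Which copy gave a read was not tested. Values given for Ccl21a are uncertain in that sense.

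The genes of the rule are given as a description, with no test among the 706 LECs. Ccl21a took a median of 2.88% of the UMIs of a LEC, with a range from 0.515% to 11.5%. The WT medians were 3.75%, 2.87% and 3.31%, and the Arom hum medians were 3.70%, 2.40% and 2.59%. The ranges of the genotypes overlapped. Mmrn1 had a UMI in 98.7% of the LECs, Lyve1 in 94.8% and Prox1 in 71.1%, and 468 of the 706 LECs (66.3%) had all 3. Lyve1 also had a UMI in 24.2% of 1983 barcodes with C1qa and C1qb, 2 macrophage genes. This set left out LECs and barcodes with a UMI of Pecam1 or Cdh5. Pdgfra marks fibroblasts. The Pdgfra+ set (15053 barcodes) left out barcodes with a UMI of Pecam1, Cdh5, Lyve1, Mmrn1 or Prox1. Ccl21a had a UMI in 2.20% of this set.

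Levels per mouse were computed as CPM, the count of a gene per 1e6 UMIs summed over the LECs of that mouse. CPM was not scaled to transcript length, so levels were compared within a gene and not between genes. Ccl21a was at 31191, 25986 and 27319 CPM in the WT mice and at 33744, 23236 and 23952 CPM in the Arom hum mice. Mmrn1 was at 2374, 2187 and 2218 CPM in WT and at 2434, 1955 and 2291 CPM in Arom hum mice. Prox1 was at 348.5, 358.4 and 346.8 CPM in WT and at 386, 407 and 334 CPM in Arom hum mice. In all of these genes the 2 genotypes overlapped. When LECs were instead taken without any condition on Ccl21a, as kept barcodes with at least 2 of Lyve1, Mmrn1 and Prox1, the log2 fold change of Ccl21a (Arom hum over WT) was -0.20 (SE 0.149, adjusted p = 0.737, edgeR's quasi-likelihood F test, p adjusted after Benjamini-Hochberg). There were 14 LECs between 0.5% and 0.6% and 21 barcodes between 0.4% and 0.5% that met the rest of the rule. In all, 147 kept barcodes had at least 2 of Lyve1, Mmrn1 and Prox1 with Ccl21a under 0.5% and were not members. The nearest values on either side of the limit were 0.515% and 0.498%.

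The label was checked against genes that the rule did not use. Flt4 had a UMI in 88.1% of the LECs, in 13.7% of gated blood endothelial cells and in 0.226% of the Pdgfra+ barcodes. The median depth of a mouse was 3559 to 6285.5 UMIs in LECs, 5006.5 to 7156 in blood endothelial cells and 9127.5 to 13312 in Pdgfra+ barcodes. After every barcode was thinned to 1000 UMIs, the shares with a UMI of Flt4 were 47.6% ± 6.13 (SD over 6 mice), 2.34% ± 0.349 and 0.00345% ± 0.00844. Reln, the gene of the secreted glycoprotein reelin, had a UMI in 87.4%, 0.570% and 1.12% of LECs, blood endothelial cells and Pdgfra+ barcodes, and in 49.1% ± 1.92, 0.110% ± 0.0978 and 0.127% ± 0.0753 after thinning, so that for both genes the share was highest in LECs. Pdpn, the gene of podoplanin, had a UMI in 78.6% of the LECs and in 78.2% of the Pdgfra+ barcodes, since fibroblasts share this marker, but in 3.56% of blood endothelial cells. The label was kept, since its defining genes outside the rule were present in LECs and low in at least 1 of the other populations. The gates of both other populations left out barcodes with a UMI of Lyve1, Mmrn1 or Prox1, so these gaps are a description.

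Some members also held RNA of another cell type. In 52 of the 706 LECs at least 1 of 8 marker lists of other cell types took over 0.5% of the UMIs ("mixed" barcodes, a limit chosen after the values were seen). The list was that of fibroblasts in 42 of the 52, and the others rose above the limit in 1 to 3 barcodes each or in none. Mixed barcodes had a median of 11135 UMIs against 4369.5 in the other LECs, and they held 12.2% of all LEC UMIs but 91.3% of the UMIs of the 10 fibroblast markers. They were 20 of 347 LECs in WT and 32 of 359 in Arom hum mice. All 12 LECs that the doublet caller Scrublet marked were mixed barcodes. The summed level of the 10 fibroblast markers was 2351 to 7587 CPM in WT and 3750.5 to 6189 CPM in Arom hum LECs. Without the mixed barcodes it was 228 to 358 CPM in WT and 559.9 to 771 CPM in Arom hum LECs, and no marker was at 0. At that level each marker stood at 0.0876% to 0.575% of its level in Pdgfra+ barcodes in WT and at 0.736% to 1.81% in Arom hum mice. The genotypes thus overlapped in fibroblast marker RNA with all LECs, and every Arom hum mouse was above every WT mouse without the mixed barcodes. The same markers chose the mixed barcodes, so this gap is a description. Counts of genotype calls below are given with and without the mixed barcodes. The other lists were low in the remaining 654 LECs. Macrophage markers summed to 67.1 to 96.4 CPM in WT, most of it from Mrc1, a receptor gene that LECs also use, and to 67.02 to 179.98 CPM in Arom hum mice.

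**Figure D1:**
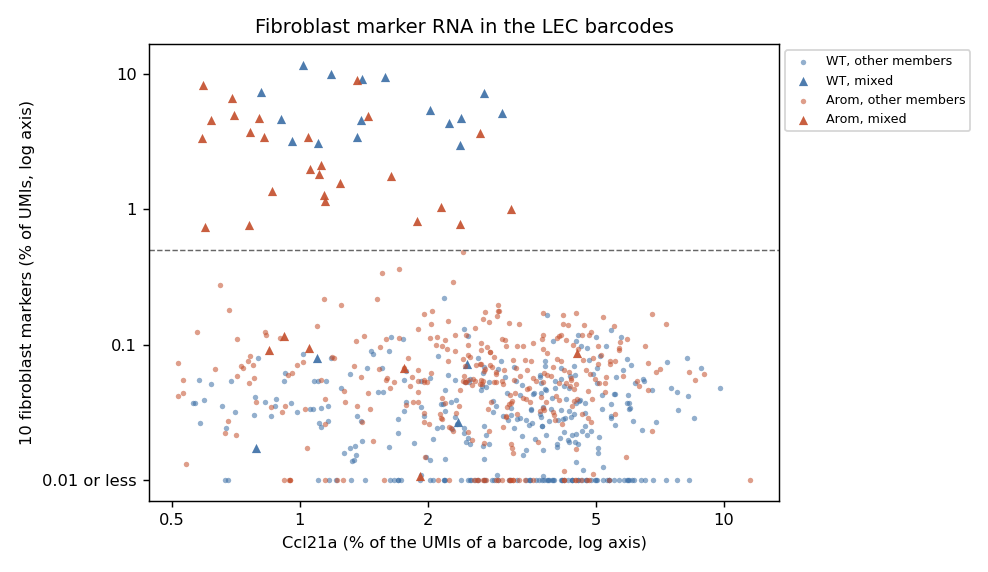
Each point is 1 of the 706 LEC barcodes, with the share of its UMIs from Ccl21a on the x axis and from 10 fibroblast markers on the y axis (both in percent, log axes), coloured by genotype. The dashed line marks 0.5%, and 42 of the 52 mixed barcodes (triangles) lie over this line. The 10 other mixed barcodes lie among the 654 remaining LECs (dots), which are all under it.

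The first comparison asked whether LECs made up a different share of the tissue suspension in the 2 genotypes. Of the kept barcodes, LECs were 1.34%, 1.68% and 1.61% in WT. They were 0.936%, 0.804% and 2.04% in Arom hum mice. The exact (Clopper-Pearson) 95% intervals, which cover counting error only, were 0.653% to 0.979% for the lowest mouse and 1.74% to 2.38% for the highest. Arom hum 3 was above every WT mouse, and the other Arom hum mice were below them. The means were 1.54% ± 0.181 in WT and 1.26% ± 0.679 in Arom hum mice (SD, n = 3 each), a difference of -0.282 points that a 2-sided exact permutation test did not separate (p = 0.5). The smallest p that 3 mice against 3 allow is 0.1. Without the mixed LECs the difference was -0.308 points (p = 0.4 by the exact permutation test), and under the barcode limits of the study it turned to 0.386 points (exact p = 0.8). When every kept barcode over the 0.5% limit on a marker list was dropped, which takes most other cell types out of the denominator, LECs were 3.20%, 3.58% and 3.00% of the remainder in WT and 3.81%, 3.64% and 6.10% in Arom hum mice, a difference that was not tested. The direction thus depended on the denominator.

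The same comparison was made for the endothelial cells of blood vessels. Blood endothelial cells were gated as kept barcodes with a UMI of both Pecam1 and Cdh5, none of Lyve1, Mmrn1, Prox1 or Pdgfra, and Ccl21a under 0.1% of UMIs (12641 barcodes). They were 33.9% ± 7.51 of the kept barcodes in WT mice, against 17.3% ± 5.25 with the transgene (2-sided exact permutation test, p = 0.1, n = 3 each, the smallest possible). Among LECs and blood endothelial cells together, LECs were 4.78%, 4.78% and 3.73% in WT. They were 5.41%, 6.02% and 8.18% in Arom hum mice, all above the WT values. The mean was 4.43% ± 0.609 in WT and 6.54% ± 1.45 with the transgene, 1.48-fold higher (2-sided exact permutation p = 0.1, n = 3 each). The denominator of this share was the population that was lower in Arom hum mice, and the test cannot pass 0.05 at this size.

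**Figure D2:**
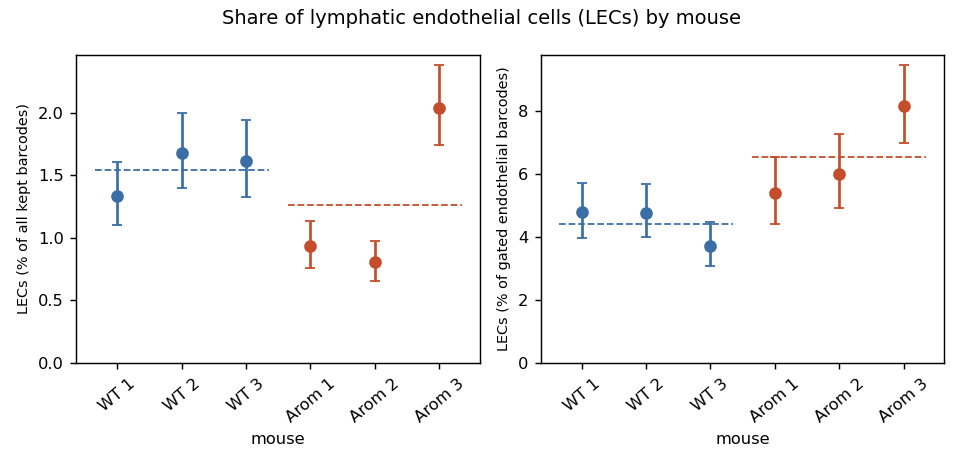
LECs as a percent of all kept barcodes (left) and of LECs plus gated blood endothelial cells (right) in each mouse, with exact 95% counting intervals as bars and the mean of each genotype as a dashed line. On the left Arom hum 3 (2.04%) lies above and Arom hum 1 and 2 lie below the WT mice. On the right the Arom hum mice (5.41% to 8.18%) lie above the WT mice (3.73% to 4.78%).

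LECs were next set beside the blood endothelial cells of the same mice, to show which genes set them apart. The 2 gates choose this contrast, so the counts below are a description. Of 11113 genes tested, 2254 (20.3%) were higher and 2619 (23.6%) were lower in LECs at an adjusted p of at most 0.05 (edgeR's quasi-likelihood test, mouse as a block, the 7 genes of the gates left out). Of a list of 29 lymphatic identity genes outside the rule, 24 were among the higher and 5 among the lower, with a median log2 difference of 3.34 against -0.00159 over all genes tested.

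Genes of VEGF-C and angiopoietin signalling were split, with 6 of 19 higher and 9 lower in LECs and a median log2 difference of -0.38. Svep1, counted among the 6, had no UMI in the LECs without mixed barcodes. Flt4, the VEGF-C receptor, was at 687, 689 and 719.9 CPM in the WT mice and at 696, 673 and 661 CPM in the Arom hum mice, against a mean of 20.2 ± 0.925 CPM in blood endothelial cells (SD, n = 6). Tbx1, a transcription factor gene that acts upstream of Flt4 in lymphatic development, was at 68.2, 69.9 and 62.2 CPM in WT and at 65.3, 69.98 and 67.3 CPM in Arom hum LECs, against 0.335 ± 0.166 CPM. The 6 LEC values of each of these genes lay close together in both genotypes. Kdr, the gene of the VEGF receptor that both endothelia use, differed little (299.97 ± 40.0 CPM in LECs and 338 ± 60.3 CPM in blood endothelial cells). The co-receptors parted. Nrp2, which binds VEGF-C, was at 453 ± 53.4 CPM against 351 ± 57.2 CPM, whereas Nrp1, which binds VEGF-A and semaphorins, was at 20.8 ± 5.82 CPM against 362 ± 55.1 CPM. The angiopoietin receptor genes also ran in opposite directions, with Tie1 at 195 ± 25.9 CPM against 136 ± 19.0 CPM and Tek at 50.7 ± 9.69 CPM against 96.2 ± 9.03 CPM.

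Secreted products of LECs gave some of the widest gaps. Reln was at 755.5, 756 and 743 CPM in WT and at 662.5, 626.5 and 707 CPM in Arom hum LECs, against 1.06 ± 0.583 CPM in blood endothelial cells, a 669-fold difference in mean level. Il7, the gene of a cytokine that keeps T cells alive, was at 149, 176 and 140.2 CPM in WT and at 131, 165 and 153 CPM in Arom hum LECs, against 0.351 ± 0.216 CPM. Both genes were nearly silent in the other endothelium. Nts, the gene of the peptide neurotensin, was at 2517 ± 455 CPM against 18.7 ± 5.03 CPM, and Lcn2, an iron-binding acute-phase protein gene, was at 561 ± 107 CPM against 11.96 ± 4.57 CPM. The guidance cue genes Sema3d (113 ± 19.5 CPM against 1.27 ± 0.465 CPM), Sema3a (75.9 ± 18.95 CPM against 1.49 ± 0.481 CPM) and Ntn1 (318 ± 13.1 CPM against 13.9 ± 3.99 CPM) followed the same direction. The genes with the largest differences by the naming rule also included Slc38a4, an amino acid transporter gene (139.8 ± 26.6 CPM against 0.0997 ± 0.0750 CPM), Dtx1, a Notch pathway ubiquitin ligase gene, Slc45a3 and Apba2, the last with 2 UMIs in all blood endothelial cells.

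Leukocyte trafficking and chemokine genes were split as well. Of 30 tested, 13 were higher, Ccl2 and Ccl7 among them, and 14 lower in LECs, with a median log2 difference of 0.09. Vcam1, an adhesion receptor gene, was at 16.8 ± 12.1 CPM against 419 ± 228 CPM, Selp (P-selectin) was at 98.8 ± 63.6 CPM against 2202 ± 819.95 CPM, and the interferon-induced chemokine gene Cxcl9 was at 5.56 ± 5.81 CPM against 135 ± 32.0 CPM. On the LEC side stood Ackr2, a scavenging receptor gene for inflammatory chemokines (36.2 ± 14.2 CPM against 0.377 ± 0.189 CPM), Stab1, a scavenger receptor gene (442 ± 51.8 CPM against 41.9 ± 6.82 CPM), and Spns2, which exports sphingosine 1-phosphate into lymph (105.5 ± 19.4 CPM against 57.3 ± 15.98 CPM). Icam1, an adhesion receptor gene, was at 1379.5 ± 181 CPM in LECs and 1262 ± 258 CPM in blood endothelial cells and did not pass the test.

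Class I antigen presentation, interferon and lipid genes were lower in LECs as groups, beside 23.6% lower over all genes. None of 19 class I and class II genes tested was higher and 13 were lower, with H2-K1 at 689 ± 216 CPM against 1828 ± 231 CPM. All 13 belong to the class I pathway, and no class II gene tested passed. H2 genes share sequence, and how the counting split such reads is not given in the sources used here. None of 25 interferon-stimulated genes was higher and 19 were lower, with the GTPase gene Iigp1 at 117 ± 75.4 CPM against 1522 ± 201 CPM. Of 23 lipid uptake genes 2 were higher and 14 lower. Fabp4, a fatty acid binding protein gene, was at 361, 846 and 994 CPM in WT and at 799, 242 and 783 CPM in Arom hum LECs, against 16442 ± 1816 CPM in blood endothelial cells. Even the highest LEC library was far under that mean. The junction list gave 11 of 13 lower and none higher, with Jam2 at 13.5 ± 9.10 CPM against 263.9 ± 30.8 CPM and Cldn5 at 1330.4 ± 158 CPM against 1942 ± 507 CPM. Among the 11 were Emcn, Cav1, Cavin1 and Plvap, which are not junction genes in the strict sense.

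The lists above and those that follow are to be read against the 20.3% higher and 23.6% lower over all genes. Of 25 TGF-beta and BMP genes 12 were higher and 10 lower. Tgfbr2, a TGF-beta receptor gene, was at 392 ± 40.0 CPM in LECs against 62.0 ± 20.1 CPM, and the ligand gene Tgfb2 was at 119 ± 34.4 CPM against 15.9 ± 2.96 CPM. The BMP ligand gene Bmp4 was at 15.7 ± 10.9 CPM against 149 ± 30.9 CPM. Among collecting vessel and valve genes, 10 of 23 were higher and 5 lower, the latter near the background. Itga9, an integrin gene needed for valve leaflets, was at 139 ± 17.7 CPM against 23.8 ± 9.55 CPM, and Foxc2, a valve transcription factor gene, was at 24.3 ± 4.95 CPM against 5.59 ± 1.29 CPM. Of 14 Notch genes 3 were higher, near the 20.3% over all genes, and 7 lower, and Notch1 itself was at 256 ± 28.7 CPM against 251 ± 25.4 CPM. Markers of other cell types also moved in this contrast. All 9 fibroblast markers tested were higher in LECs (median log2 difference 0.85), and all 8 mural markers, with Notch3 among them, were lower (median -3.42). The blood endothelial gate left out barcodes with Pdgfra, whereas the LEC rule did not. Mixed barcodes stayed in this contrast and held 91.3% of the fibroblast marker UMIs of LECs. The fibroblast direction is therefore not read as a trait of LECs. Without mixed barcodes in either population, 2288 genes were higher and 2484 lower of 10207 tested. The part of markers of other cell types in the lists above was not tested.

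**Figure D3:**
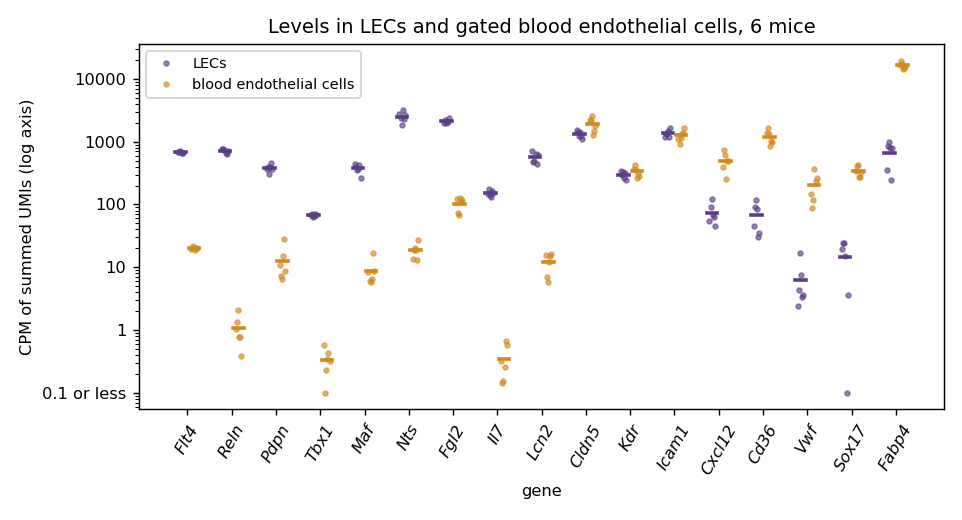
CPM of 17 genes in LECs (purple) and gated blood endothelial cells (orange), on a log axis. Each point is 1 of 6 mice and each bar the mean. Reln (709 against 1.06 CPM) and Il7 (152 against 0.351 CPM) show gaps in favour of LECs, Fabp4 (671 against 16442 CPM) a gap in favour of blood endothelial cells, and Kdr and Icam1 lie side by side.

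The main comparison was between genotypes within LECs. The UMIs summed over the LECs of a mouse numbered 535822 to 1382763. Aromatase itself was nearly absent from these cells. The human CYP19A1 transgene had 770, 797 and 787 UMIs over all barcodes of the Arom hum libraries and 1, 0 and 1 in their LECs, and it had none in WT libraries. Of the receptor genes for estrogen, Esr1 and Gper1 were close to the limit of detection, and no value is given for Esr2. Esr1 had 20 UMIs in all 706 LECs and a UMI in 14 of them (1.98%), against 34.3% of Pdgfra+ barcodes and 1.59% of blood endothelial cells. These shares were not thinned to a common depth, and the Pdgfra+ barcodes were deeper. In the 654 LECs without mixed barcodes, 2 barcodes had a UMI of Esr1. Pgr, an estrogen target gene, had 16 UMIs, and Gper1, a membrane estrogen receptor gene, had 10.

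With all 706 LECs, 15 of 7123 genes tested (0.211%) were higher and 1 (0.014%) was lower in Arom hum mice at an adjusted p of at most 0.05 (edgeR's quasi-likelihood F test, p adjusted after Benjamini-Hochberg). The genotypes did not overlap in any of these 16 genes. Over all genes tested, 465 (6.53%) had no overlap with Arom hum mice higher and 529 (7.43%) with Arom hum mice lower. The higher genes were Pnoc, Sfrp4, Postn, Spon2, Mmp19, Vcan, Pi16, Loxl1, Plod2, Cilp, Col5a2, Fn1, Bgn, Fbn1 and Dab2. Sfrp4, a secreted Wnt antagonist gene, was at 2.44, 3.64 and 0 CPM in WT and at 174, 228 and 67.98 CPM in Arom hum LECs. Postn, the gene of the matrix protein periostin, was at 9.75, 8.01 and 4.22 CPM in WT and at 97.05, 43.3 and 232 CPM in Arom hum LECs. Fn1 (fibronectin) was at 85.3, 103 and 86.4 CPM in WT and at 228, 332 and 249.5 CPM in Arom hum LECs.

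For 14 of the 15, all but Dab2, the level was higher in Pdgfra+ barcodes than in LECs, and the 52 mixed barcodes held 38.7% (Fbn1) to 95.5% (Sfrp4) of the UMIs found in LECs. They held 9.66% of the Dab2 UMIs. Pnoc, the gene of the neuropeptide precursor prepronociceptin, was at 7.31, 0 and 2.11 CPM in WT and at 42.9, 816.5 and 493.9 CPM in Arom hum LECs, and without the mixed barcodes at 4.52, 0 and 2.23 CPM and at 47.1, 28.9 and 103 CPM. In Arom hum 3 a single barcode then held 73 of the 121 Pnoc UMIs (60.3%). Fn1 then had a log2 fold change of 0.66 (SE 0.219, adjusted p = 0.377) in place of 1.57 (SE 0.164, adjusted p = 0.00302).

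Without the mixed barcodes (327 LECs in each genotype), 25 of 6666 genes tested (0.375%) were higher and 3 (0.045%) were lower in Arom hum mice by the same test. All 28 genes had no overlap between the genotypes, against 377 (5.66%) higher and 494 (7.41%) lower with no overlap over all genes tested. Dab2, Gm14964, Pnoc, Pi16 and Postn were called with and without the mixed barcodes. Of the 25 higher genes, 9 (Pnoc, Ren1, Pi16, Postn, Mfap4, Col1a2, Col1a1, Col3a1 and Mfap5) stood at 0.197% to 2.37% (WT) and 0.736% to 4.76% (Arom hum) of their level in Pdgfra+ barcodes, beside 0.0876% to 0.575% and 0.736% to 1.81% for the fibroblast markers. The part of fibroblast RNA in these 9 calls was not tested. Mfap4, Col1a2, Col1a1 and Col3a1 are among those markers, which also chose the mixed barcodes, so their calls are a description. The other 16 stood at 5.34% or more of that level in WT and at 19.9% or more in Arom hum LECs. The dividing limit was 10%, which not all of the 16 reached in WT. With 1 mouse left out, Pnoc, Ren1, Col1a1 and Col1a2 passed in 6 of 6 fits, Col3a1 in 5, Postn in 4, Mfap4 in 2 and Mfap5 in 0. Pi16 passed in 1 of the 5 fits that tested it. Pnoc had 3, 0 and 2 UMIs in the WT mice, and Ren1 had 15, 3 and 1. Pi16, Postn, Mfap4 and Mfap5 had at most 11 in any WT mouse. These genes met the filter on low counts through the Arom hum mice, so their passes are a description. In Arom hum 2 a single barcode held 12 of the 15 Pi16 UMIs (80%). The collagens were also uneven there, with 33 of 63 Col3a1 UMIs (52.4%), 10 of 22 Col1a1 (45.5%) and 20 of 50 Col1a2 (40%) in a single barcode. In WT 3 a single barcode held 33 of 51 Col3a1 UMIs (64.7%) and one held 8 of 14 Col1a1 UMIs (57.1%). The division into 9 and 16 genes was made after the values were seen and describes levels only.

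The 16 genes of this second set included 3 chemokine genes. Ccl2, which recruits monocytes through the receptor CCR2, lies on chromosome 11 from 82035571 to 82037453 (GRCm38, plus strand). It was at 942, 767 and 418 CPM in the WT mice and at 2391, 2216 and 1545 CPM in the Arom hum mice. Every Arom hum mouse was above every WT mouse, with a log2 fold change of 1.55 (SE 0.215, adjusted p = 0.00465, edgeR with Benjamini-Hochberg adjustment). It passed the test in all 9 alternatives run without mixed barcodes, 6 of which left out 1 mouse each. With the mixed barcodes kept, Ccl2 was at 1729, 1209 and 598 CPM in WT and at 2575, 2744 and 1587 CPM in Arom hum LECs, and its log2 fold change of 0.98 did not pass (SE 0.306, adjusted p = 0.361). Mixed barcodes held 32.4% of its UMIs, and the level in the other LECs was 16.1% (WT) and 40.1% (Arom hum) of that in Pdgfra+ barcodes. The part of fibroblast RNA in the Ccl2 values was not tested.

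Ccl7, a monocyte chemokine gene that lies next to Ccl2 (chromosome 11 from 82045712 to 82047525), was at 234, 99.1 and 55.8 CPM in WT and at 739, 455 and 315 CPM in Arom hum LECs (log2 fold change 2.01, SE 0.353, adjusted p = 0.0144, edgeR). WT 1 came nearest to the Arom hum mice. The neutrophil chemokine gene Cxcl2 was at 288, 424 and 144 CPM in WT and at 728.5, 769 and 566 CPM in Arom hum LECs (log2 fold change 1.27, SE 0.245, adjusted p = 0.0256, edgeR). A single barcode held 48.9% of the Cxcl2 UMIs in Arom hum 2, 39.7% in Arom hum 1 and 41.1% in WT 3, and with 1 mouse left out the gene passed in 2 of 6 fits. Ccl7 passed in 4. Mixed barcodes held 47.2% of all Ccl7 and 25.6% of all Cxcl2 UMIs in LECs, and the part of fibroblast RNA in their values was not tested. Both genes failed the test with the mixed barcodes kept (adjusted p = 0.602 and 0.393). These were 2 calls, Ccl2 and Ccl7, among 24 tested genes of the leukocyte trafficking list, which does not hold Cxcl2, beside 0.375% called higher over all genes.

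The 250 bases upstream of the Cxcl2 start are shown. Of the 28 called genes, 16 had a promoter to search, and only that of Cxcl2 held an NF-kB-type motif. NF-kB is the transcription factor of many inflammatory genes. No promoter of Ccl2 or Ccl7 was at hand, so these 2 genes were not searched. The bases shown lie at chr5:90903649-90903898 on the plus strand (RefSeq, GRCm38.p6), and capitals mark the motif.
Cxcl2 promoter: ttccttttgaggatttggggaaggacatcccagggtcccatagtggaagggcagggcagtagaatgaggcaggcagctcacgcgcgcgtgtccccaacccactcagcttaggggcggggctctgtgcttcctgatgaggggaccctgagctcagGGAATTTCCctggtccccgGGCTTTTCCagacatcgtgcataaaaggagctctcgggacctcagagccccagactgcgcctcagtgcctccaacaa
The letters searched were GGNNTTTCC on both strands, in windows from 250 bases before to 50 after a start. They began 96 and 77 bases before the start of Cxcl2. Of 32851 RefSeq promoters, 5.82% held them, and 16 of the 28 called genes were among these promoters, of which 1 did, so the share was near that background. A match of letters is not a bound site.

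Hilpda, a lipid droplet protein gene, was at 107, 115 and 78.1 CPM in WT and at 283, 211 and 172 CPM in Arom hum LECs without mixed barcodes (log2 fold change 1.13, SE 0.189, adjusted p = 0.0108, edgeR). Stc1, the gene of the hormone stanniocalcin 1, was at 116, 69.5 and 65.9 CPM in WT and at 159, 159 and 183 CPM in Arom hum LECs (1.07, SE 0.195, adjusted p = 0.0184, edgeR). Pfkfb3, a driver of glycolysis, was at 67.8, 116 and 79.3 CPM in WT and at 167, 179.8 and 152 CPM in Arom hum LECs (0.89, SE 0.184, adjusted p = 0.0404, edgeR). All 3 separated the genotypes, and the mixed barcodes held 7.99%, 3.43% and 5.43% of their UMIs. In Arom hum 2 a single barcode held 34 of the 87 Pfkfb3 UMIs (39.1%). With 1 mouse left out Hilpda passed in 5, Stc1 in 3 and Pfkfb3 in 1 of 6 fits. With all LECs none of the 3 passed (adjusted p = 0.0750, 0.0886 and 0.159, edgeR).

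Dab2, an endocytic adaptor gene on chromosome 15 from 6299788 to 6440712, was at 158, 120.2 and 139.5 CPM in WT and at 268, 277 and 232 CPM in Arom hum LECs without mixed barcodes (log2 fold change 0.91, SE 0.148, adjusted p = 0.0108, edgeR). With all LECs it gave 0.88 (SE 0.151, adjusted p = 0.0430, edgeR). The values moved little between the 2 sets. Akap12, a scaffold protein gene, was at 542, 613 and 496 CPM in WT and at 966, 816.5 and 976 CPM in Arom hum LECs (0.76, SE 0.127, adjusted p = 0.0108, edgeR). With 1 mouse left out it passed in 5 of 6 fits and Dab2 in 4. With all LECs Akap12 did not pass (adjusted p = 0.0695, edgeR). The remaining genes higher in Arom hum LECs were Gm13889, Srgn, Tm4sf1, Serpinb6b, Rcan1, Lrg1, Neat1 and Tmem2, with log2 fold changes from 0.56 (Neat1) to 1.11 (Gm13889), and with 1 mouse left out Gm13889, Srgn and Tm4sf1 passed in 2 of 6 fits, Rcan1, Lrg1 and Tmem2 in 1, and Neat1 and Serpinb6b in 0. The fold changes kept their direction in these fits, for example 0.51 to 0.62 for Neat1 and 0.79 to 1.00 for Serpinb6b. Lrg1 encodes a secreted glycoprotein that modulates endothelial TGF-beta signalling, and Rcan1 an inhibitor of calcineurin.

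Of the 3 genes lower in Arom hum LECs, 1 was called in both sets. Gm14964, annotated as an antisense gene on chromosome 19 from 6530711 to 6532011 (minus strand), was at 137, 90.5 and 109 CPM in WT and at 42.9, 51.7 and 50.9 CPM in Arom hum LECs without mixed barcodes (log2 fold change -1.15, SE 0.197, adjusted p = 0.0130, edgeR). It was also called with all LECs (-1.20, SE 0.186, adjusted p = 0.0191, edgeR). How the counting used strand is not stated in the sources used here. Whether reads of an overlapping gene were counted for Gm14964 was not checked. Srsf9, a splicing factor gene, was at 101, 91.3 and 87.1 CPM in WT and at 40.7, 37.2 and 55.1 CPM in Arom hum LECs (-0.96, SE 0.190, adjusted p = 0.0283, edgeR). Tsc22d3, which encodes GILZ, a classic target of the glucocorticoid receptor, was at 78.3, 77.3 and 74.8 CPM in WT and at 49.3, 39.3 and 37.3 CPM in Arom hum LECs (-0.88, SE 0.187, adjusted p = 0.0483, edgeR). The WT values lay close together and above all Arom hum values. With 1 of the 6 mice left out, Gm14964 passed in 3 of 6 fits, Srsf9 in 1 and Tsc22d3 in 0. With all LECs Srsf9 (adjusted p = 0.0777, edgeR) and Tsc22d3 (0.106) did not pass. The glucocorticoid receptor gene Nr3c1 did not pass (log2 fold change -0.35, adjusted p = 0.522, edgeR).

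**Figure D4:**
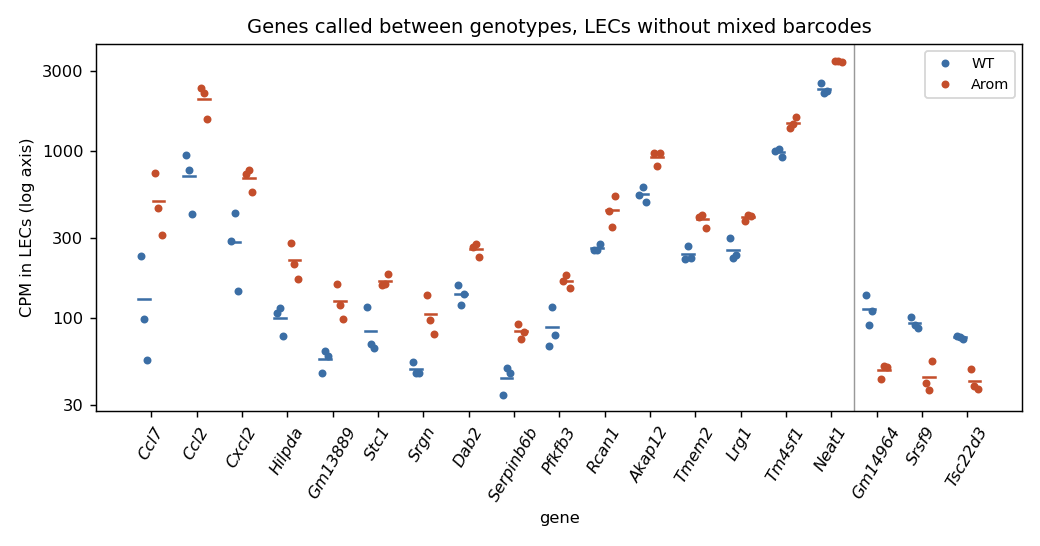
CPM in LECs without mixed barcodes, on a log axis, of the 16 genes called higher in Arom hum mice that stood at 5.34% (WT) and 19.9% (Arom hum) or more of their level in Pdgfra+ barcodes (left of the line) and of the 3 genes called lower (right). Points are mice and bars are means of 3. WT and Arom hum points do not overlap for any gene, and Ccl2 rises from 418 to 942 CPM in WT to 1545 to 2391 CPM in Arom hum mice.

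The shares called over all genes were so low (0.211% and 0.014% with, 0.375% and 0.045% without mixed barcodes) that nearly no call would fall in a list of 3 to 32 genes at that background, and nothing is read from the counts of 0 below. With or without mixed barcodes, 0 of 27 lymphatic identity genes tested passed in either direction, with a median log2 fold change of -0.10 and -0.07 against -0.00496 and -0.00419 over all genes tested. At an adjusted p of at most 0.05 there was also no call in 12 VEGF-C and angiopoietin genes, 14 junction genes, 9 Notch genes, 32 immediate early and heat shock genes or 15 interferon-stimulated genes in either set of LECs (edgeR). Over all genes tested, 601 with and 500 without mixed barcodes had an unadjusted p under 0.05 (edgeR). DESeq2 called 35 higher and 2 lower with them and 19 higher and 4 lower without them. It gave no adjusted p to 4 of 7123 genes with and 4265 of 6666 genes without mixed barcodes. Fn1 was the single call of the valve list and of the basement membrane list, and it was lost without mixed barcodes. The lists of antigen presentation (15 genes tested with mixed barcodes), lipid handling (18), complement (9), cell cycle (3) and TGF-beta and BMP genes (20) also had no call in either set. Tsc22d3 was the single call among 10 tested steroid receptor and target genes. The interferon-stimulated genes had a median log2 fold change of 0.35 without mixed barcodes, with Isg15 at 291, 149 and 129 CPM in WT and at 653.5, 174 and 143 CPM in Arom hum LECs, so that Arom hum 1 stood apart. A p that misses the threshold does not show that a gene is at the same level in both genotypes.

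The last comparison asked whether the genotype effect differed between LECs and blood endothelial cells, by the interaction of genotype and population. With all LECs, 8 of 11959 genes (0.0669%) had a more positive and 12 (0.1%) a more negative log2 effect (Arom hum over WT) in LECs at an adjusted p of at most 0.05 (edgeR's quasi-likelihood test, mice nested in genotype). Without mixed barcodes in either population, these were 47 (0.426%) and 65 (0.589%) of 11038 genes, and 13 genes were called in both fits. The integrin gene Itgb3 was at 25.1 CPM in WT and 19.3 CPM in Arom hum LECs, but at 1.71 CPM and 18.6 CPM in blood endothelial cells (interaction -3.46, SE 0.512, adjusted p = 0.0136, edgeR). Col18a1, the collagen gene from which endostatin is cut, was at 349 and 411 CPM in LECs and at 28.2 and 109.7 CPM in blood endothelial cells (-1.63, SE 0.233, adjusted p = 0.0106, edgeR). Gmfg, a gene of actin branch turnover, was at 331 and 232 CPM in LECs and at 25.7 and 57.6 CPM in blood endothelial cells (-1.61, SE 0.203, adjusted p = 0.00406, edgeR). In all 3 the WT level was higher in LECs than in blood endothelial cells, and the blood endothelial level was higher in Arom hum than in WT mice. Col18a1, Gmfg and Itgb3 were also the 3 genes of lowest adjusted p without mixed barcodes.

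**Figure D5:**
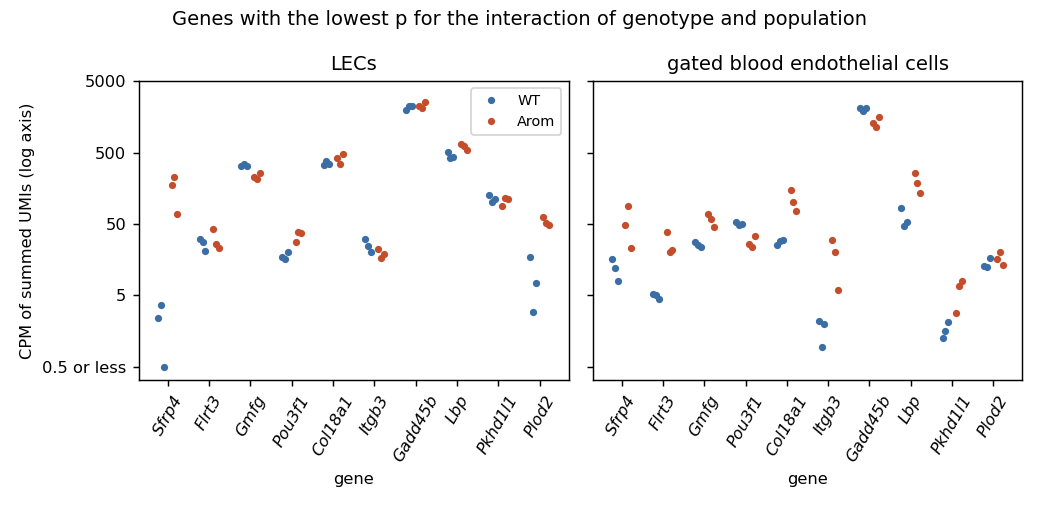
CPM (log axis) in LECs (left) and gated blood endothelial cells (right) of the 10 genes with the lowest p for the interaction of genotype and population. Each point is 1 mouse, with values under 0.5 drawn at 0.5. For Itgb3 and Col18a1 the WT and Arom hum points lie at like levels in LECs and apart in blood endothelial cells, while Sfrp4 is higher in Arom hum mice in both.

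Immediate early and heat shock genes, which are induced within minutes by many stimuli including tissue digestion, took a share of these calls. Without mixed barcodes 10 of the 32 had a positive interaction that passed the test (Fos, Fosl1, Junb, Egr1, Egr3, Ier2, Nr4a1, Btg2, Hspa1a and Hspa1b), against 0.426% over all genes, and 1 (Ier2) was called with them. Of the 32 genes, 30 had a positive interaction, against 50.4% of all genes tested. The transcription factor gene Egr1 was at 2838, 2229 and 3397 CPM in WT and at 2500.5, 2518 and 2548 CPM in Arom hum LECs without mixed barcodes, whereas in all gated blood endothelial cells it was at 2186, 2103 and 1919.7 CPM in WT and at 1039, 1206 and 1326 CPM in Arom hum mice. The LEC values overlapped, and the blood endothelial values were lower in every Arom hum mouse. Hspa1a, the gene of an inducible heat shock protein, was at 838, 1314 and 1456 CPM in WT and at 1054, 759 and 741 CPM in Arom hum LECs without mixed barcodes. In all gated blood endothelial cells Hspa1a was at 850.1, 1013 and 1027 CPM in WT and at 262, 253 and 394 CPM in Arom hum mice. Its interaction without mixed barcodes in either population was 1.47 (SE 0.196, adjusted p = 0.000139, edgeR). With all barcodes it was 1.17 (SE 0.235, adjusted p = 0.0634, edgeR) and did not pass. Hspa1a and Hspa1b are near-identical copies, so their counts may be split between them. The 2 populations of a mouse came from the same digest, and the part of dissociation in these values was not tested.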

How the data were processed

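The authors deposited raw UMI counts per gene and barcode for 6 10x Genomics libraries, made with Cell Ranger 3.0.2 against mm10 per the labels and submitters' processing notes. Library totals were 64958237 to 111826460 UMIs. The members and all gene lists were chosen with earlier results of these data known. Counts were summed per mouse and population and tested with edgeR 4.0.16 (quasi-likelihood, TMM factors, filterByExpr, Benjamini-Hochberg threshold 0.05) in R 4.3.3. Ccl21a, Lyve1, Mmrn1 and Prox1 were left out, and between populations also Pecam1, Cdh5 and Pdgfra. The other marker genes that chose the mixed barcodes were not left out. Self-tests used simulated counts. Shares were compared by exact permutation over mice. Each library is a separate mouse, and p-values measure the spread between mice. Doublets were marked with Scrublet (scanpy 1.11.5) and kept in the main tests. In WT 2 and WT 3 its automatic threshold marked no barcode, so the median threshold of the other libraries (0.230) was used there. Of 471 barcode sequences seen in 2 or more libraries, 16 were those of LECs, and none was shared by 2 LECs. Genes were named by size of log2 fold change among calls (up to 15 in each direction with at least 20 CPM, or 50 CPM between populations), by lowest p (10 interaction genes, or up to 5 where few were called) and from the lists. The remaining genes called without mixed barcodes, and genes picked within lists, were named after their values were seen. Alternatives were other gates, limits, size factors, filters, DESeq2 1.42.0, a replicate block and leaving out each mouse. Coordinates and Ccl21 coding sequences came from GENCODE vM21 and the promoter from RefSeq. Ccl2 and Ccl7 promoters were not at hand and were not searched.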

Additional observations from a re-analysis of the deposited data

Results flagged for a closer look

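The 10 genes with the lowest p had a genotype effect (log2, Arom hum over WT) that differed between LECs and blood endothelial cells by the interaction test (edgeR's quasi-likelihood F test, p adjusted after Benjamini-Hochberg). The effect in LECs minus that in blood endothelial cells was 4.02 for Sfrp4, 2.55 for the collagen-modifying enzyme gene Plod2, 1.83 for the transcription factor gene Pou3f1 and 0.75 for the stress gene Gadd45b. It was -3.46 for Itgb3, -2.18 for Flrt3, -1.84 for Pkhd1l1, -1.63 for Col18a1, -1.61 for Gmfg and -1.20 for the acute-phase gene Lbp. Without the mixed barcodes the difference was 6.67 (SE 2.46, adjusted p = 0.260) for Sfrp4, 1.38 (SE 0.4004, 0.102) for Pou3f1, 1.01 (SE 0.757, 0.713) for Plod2 and -0.41 (SE 0.369, 0.774) for Pkhd1l1, none of which passed, and the other 6 did. Lbp was at 453 and 604 CPM in WT and Arom hum LECs and at 62.0 and 194 CPM in blood endothelial cells. Gadd45b was at 2153 and 2315 CPM in LECs and at 2039 and 1337 CPM in blood endothelial cells.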

How the results depend on the processing

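The number of genes called between genotypes depended on the processing, and the cause was not tested. Called higher and lower in Arom hum LECs were 15 and 1 genes, 6 and 2 with Ccl21a at 1% or more, 35 and 2 with DESeq2, 4 and 0 without doublets, 0 and 0 under the barcode limits of the study (194 of 2882 genes at an unadjusted p under 0.05), 8 calls higher without barcodes holding Pdgfra or Ptprc, 145 and 22 without a filter on low counts, 25 and 3 without mixed barcodes (an alternative chosen after seeing the data), and 73 and 6 with the replicate block. Leaving out each mouse in turn gave 2 to 47 and 0 to 5, with 2 higher without WT 2 or WT 3, 5 without Arom hum 2, 24 without Arom hum 3 and 47 without WT 1. Without mixed barcodes no filter gave 100 and 27, the replicate block 85 and 22, and leaving out a mouse 6 to 21 and 0 to 4, with 6 and 0 without WT 3, 12 and 1 without WT 2, and 14 and 1 without Arom hum 1. Genes whose effect differed between populations numbered 20, and 46 with DESeq2, 12 without doublets, 7 under the limits of the study, 298 without a filter, 112 without mixed barcodes, 217 with the replicate block and 12 to 137 with a mouse left out (137 without Arom hum 3, 47 without Arom hum 2 or WT 1, 12 without WT 2). In the interaction fit DESeq2 gave no adjusted p to 3942 of 11959 genes. Under the limits of the study 1161 genes were higher and 1538 lower in LECs than in blood endothelial cells. The difference in LEC share of kept barcodes turned from -0.282 to 0.386 points under the limits of the study (exact permutation p = 0.8), and with a mouse left out it was -0.673 to -0.0543 points. That of the endothelial share was 1.29 to 2.67 points. The replicate numbers gave a partial hint of pairing. Same-numbered mice correlated at 0.181, -0.00784 and 0.195 in LECs, where WT 2 correlated best with Arom hum 3, and at 0.179, 0.0434 and 0.319 in blood endothelial cells, where each WT mouse correlated best with its own number. Not every pair passed 0.1, so the block was kept as an alternative, and it raised the count of calls. Without a condition on Ccl21a 12 and 1 genes were called, and 4 of these calls were shared with the 16 given. RLE size factors gave the same counts as TMM between genotypes and for the interaction, and 2123 higher and 2761 lower genes between populations. With 3 mice a genotype, a LEC sum as low as 535822 UMIs limits what low genes can show.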
